A study of Homo sapiens with 4 samples.

Results

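Metallothioneins are small cysteine-rich proteins that bind zinc, copper and cadmium, and together with the zinc exporters they set how much free metal a cell holds. The genes described here are 10 members named by symbol: the metallothioneins MT1A, MT1E, MT1F, MT1G, MT1M, MT1X and MT2A, the zinc-sensing transcription factor MTF1, and the transporters SLC30A1 and SLC30A10. All 10 had a row in the deposited table of 30863 genes, and 9 of them passed the filter of a mean of at least 1 normalized count that left 23828 genes for testing. MT1M did not pass it. The libraries are poly(A)-selected RNA of HepG2, an established human liver cancer line that the labels call hepatoblastoma and wild type (WT). DMSO, the solvent, was given for 48 h to one group (2 libraries), and AMF, which the series title spells out as amentoflavone, a plant biflavonoid, was given for 48 h to the other (2 libraries). Compound and dose are uncertain, because the protocol field has AMF at 90 µM while the series' design text has Tub B at 80 µM. AMF is used below as the name in the sample titles. Whether the replicates came from separate cultures is not stated, and p-values therefore cover only library-to-library spread, possibly technical.

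In most tissues metallothionein genes are switched on when MTF1 senses free zinc and binds metal response elements (MREs) in their promoters. MTF1 also drives SLC30A1, the exporter that moves zinc across the plasma membrane out of the cell. SLC30A10 belongs to the same transporter family, but it is best known for exporting manganese from hepatocytes. In liver, metallothionein transcripts also respond to glucocorticoids, cytokines, oxidants and heavy metals.

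The stretch of promoter just before the start of transcription is shown for MT2A, MT1X, SLC30A1 and SLC30A10. RefSeq promoter entries on GRCh38.p14 were matched by symbol for 5 of the 10 members, these and MTF1. No entry was available for MT1A, MT1E, MT1F, MT1G and MT1M, so their promoters were not examined. The files name another build (hg19), so the coordinates belong to the sequences alone. Each sequence holds the 250 bases before the annotated start, 5′ to 3′ on the gene's strand, and capitals mark every match to the MRE core on either strand (TGCACNC or TGCGCNC, where N is any base). MT2A lies at chr16:56608334-56608583 (+), MT1X at chr16:56682220-56682469 (+), SLC30A1 at chr1:211579162-211579411 (-) and the downstream of the 2 SLC30A10 starts at chr1:219928558-219928807 (-).
MT2A: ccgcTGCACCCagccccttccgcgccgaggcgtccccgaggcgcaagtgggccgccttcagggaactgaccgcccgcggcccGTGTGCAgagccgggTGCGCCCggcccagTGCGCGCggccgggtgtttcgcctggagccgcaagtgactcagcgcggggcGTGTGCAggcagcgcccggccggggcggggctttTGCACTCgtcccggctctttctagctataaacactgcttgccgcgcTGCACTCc
MT1X: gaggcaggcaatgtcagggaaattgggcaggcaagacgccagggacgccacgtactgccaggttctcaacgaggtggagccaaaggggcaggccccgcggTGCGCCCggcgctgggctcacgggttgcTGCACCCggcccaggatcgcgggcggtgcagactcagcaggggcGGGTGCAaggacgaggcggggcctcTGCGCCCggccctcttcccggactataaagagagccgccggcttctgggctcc
SLC30A1: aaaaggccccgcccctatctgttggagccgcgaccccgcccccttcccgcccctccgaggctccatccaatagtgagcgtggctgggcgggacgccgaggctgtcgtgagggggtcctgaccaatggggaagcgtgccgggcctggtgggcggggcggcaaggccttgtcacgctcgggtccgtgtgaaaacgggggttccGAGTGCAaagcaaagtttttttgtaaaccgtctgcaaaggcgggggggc
SLC30A10: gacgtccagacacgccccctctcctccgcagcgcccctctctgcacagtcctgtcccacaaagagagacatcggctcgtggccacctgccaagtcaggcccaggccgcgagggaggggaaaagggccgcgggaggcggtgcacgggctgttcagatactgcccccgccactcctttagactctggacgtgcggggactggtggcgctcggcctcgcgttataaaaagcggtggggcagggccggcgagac

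MT2A held 7 MRE cores in this window and MT1X held 4. SLC30A1 held 1, and neither SLC30A10 start nor MTF1 held any. Among 34788 distinct promoter windows of that length, 24.8% held at least 1 MRE core, 0.368% at least 4 and 0.0316% (11 windows) at least 7. The antioxidant response element core TGACNNNGC, bound by NRF2, occurred once each in the windows of MT2A, MT1X, SLC30A1 and the downstream SLC30A10 start, and in 10.9% of all windows. The core of the xenobiotic response element, GCGTG, is bound by the aryl hydrocarbon receptor. It occurred 3 times in the SLC30A1 window and 2 times in that of MTF1. The windows of MT2A and the downstream SLC30A10 start each held 1. Among all windows, 32.2% held at least 1, 10.2% at least 2 and 3.13% at least 3. The MT2A match to GCGTG overlaps one of its MRE cores. These are matches of letters, not measured binding, and a missing match says nothing of binding elsewhere.

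**Figure D1:**
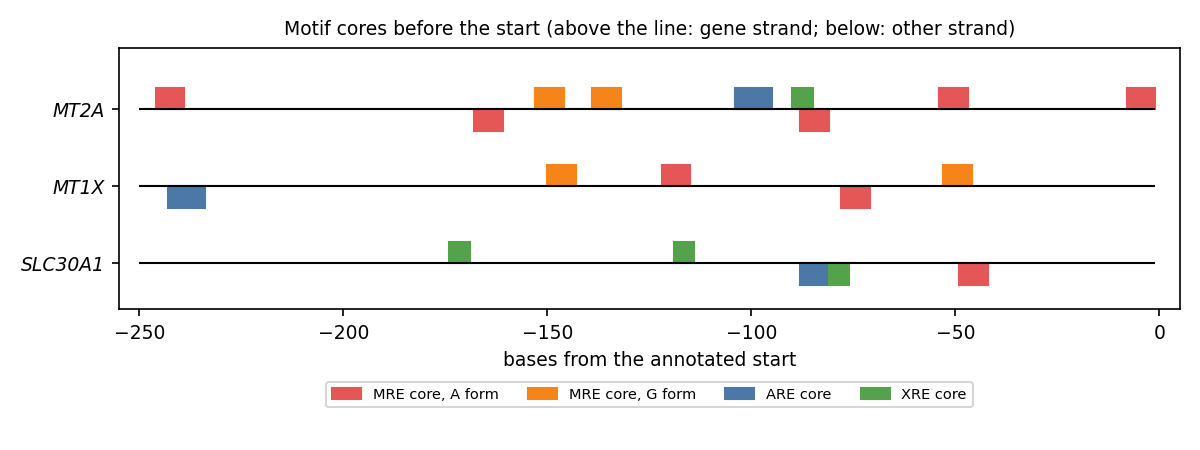
Positions of the motif cores in the 250 bases before the start of MT2A, MT1X and SLC30A1, in bases from the start, with boxes above the line on the gene's strand and below it on the other strand. MT2A carries 7 MRE cores spread over the window, MT1X 4 and SLC30A1 1.

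Reads counted in genes came to 24226586 to 26966210 per library, and 1 read was worth 0.929 to 1.03 normalized counts. Mitochondrially encoded genes took 7.69% to 7.73% of reads in DMSO and 9.53% to 9.61% in AMF. All 7 hepatocyte and HepG2 markers were read, led by APOB and ALB, and their summed level was 454794 to 466271 normalized counts in DMSO and 343988 to 362799 in AMF. APOB carried most of that fall (log2 change -0.64, adjusted p = 1.45e-09 by limma). AFP (-0.61, adjusted p = 1.85e-08) and APOA1 (-0.58, adjusted p = 1.44e-07) also fell, both by limma. ALB did not pass (-0.02, adjusted p = 0.726 by limma), and HNF4A, a transcription factor of hepatocytes, rose (0.86, adjusted p = 1.10e-09 by limma). Of the 7 markers 1 rose, 5 fell and 1 did not pass, beside 15.6% higher and 16.2% lower among all genes tested. Some markers of other cell types also moved with the groups. The 5 fibroblast markers summed to 195 to 214 in DMSO and 23.7 to 33.4 in AMF, with COL1A2 and DCN at 0 or 1 read in every library. Nearly all of that sum was COL1A1 (-3.70, adjusted p = 1.16e-06) and PDGFRB (-2.37, adjusted p = 3.23e-05), which both fell by limma. THY1 had 1 to 3 reads per library and did not pass. The 3 endothelial markers summed to 159 to 188 in DMSO and 292 to 318 in AMF, most of it PECAM1, which rose (0.79, adjusted p = 3.92e-04 by limma). VWF rose from 8 and 1 reads in DMSO to 26 and 11 in AMF (2.04, adjusted p = 0.0377 by limma). CDH5 had 6 and 2 reads in DMSO and 6 and 3 in AMF, and did not pass (adjusted p = 0.89 by limma). The 3 leukocyte markers with a row summed to 24605 to 25211 in DMSO and 17465 to 18423 in AMF, nearly all of it LYZ, which fell. CD14 rose, with 5 and 12 reads in DMSO and 34 and 19 in AMF (1.53, adjusted p = 0.0274 by limma), while CD3E had 0 reads in both DMSO libraries and 2 and 3 in AMF. The part of these shifts in the results below was not tested. In bulk RNA, fewer cells making a transcript and less transcript per cell cannot be told apart.

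MT2A, MT1E and MT1A rose in AMF, whereas MT1F, MT1G and MT1X did not pass the test. MT2A rose 3.01-fold, MT1A 2.72-fold and MT1E 1.93-fold. Of all 9 members tested, 5 rose, 1 fell and 3 did not pass, with limma's test and an adjusted p of 0.05 over all genes. The same rule called 31.8% of all genes tested, 15.6% as higher and 16.2% as lower, so a call is common in this comparison. The groups did not overlap for 6 of the 9 members, near the 63.4% of all genes tested, so non-overlap is common as well. Among the 9 members, AMF was the higher group without overlap for 5 and the lower for 1, against 33.8% and 29.7% of all genes tested. With either AMF library left out, a fit whose spread rests on the DMSO pair alone, limma called 0 genes, members included, whereas voom called 1379 and 1315 genes and 2 members (MT2A and SLC30A1) in each case. The median log2 change was 0.35 over the 9 members and 0.60 over the 6 metallothioneins tested, beside 0.04 over all genes. The 0.60 lies in a gap, with MT1E (0.95), MT1A (1.44) and MT2A (1.59) above it. MT1G (0.25), MT1X (0.02) and MT1F (-0.04) lay below it.

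MT2A, in most human cells the main metallothionein transcript, had 3053 and 2683 normalized counts in DMSO replicates 1 and 2 and 8312 and 8911 in AMF replicates 1 and 2. Both AMF libraries lay far above both DMSO libraries, and the spread within each group was small beside the gap. Its log2 change was 1.59 (SE 0.0589, 95% interval 1.46 to 1.71, adjusted p = 1.28e-10 by limma). MT1E, an isoform found in many cultured cell lines, had 950.6 and 703 in DMSO and 1579 and 1582 in AMF. The groups did not overlap, although the DMSO pair was further apart than the AMF pair. Its log2 change was 0.95 (SE 0.103, 95% interval 0.73 to 1.17, adjusted p = 5.59e-06 by limma). The change of MT1E was 0.73 without DMSO replicate 2 and 1.17 without DMSO replicate 1. MT1A was a minor transcript, with 36.0 and 32.9 in DMSO and 97.5 and 92.7 in AMF. Its groups did not overlap either. Its log2 change was 1.44 (SE 0.225, 95% interval 0.96 to 1.92, adjusted p = 1.62e-04 by limma). On the scale of the deposited log2 values, which compresses low levels, the change of MT1A was 0.63 (adjusted p = 1.78e-04 by limma).

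MT1F, another isoform of the cluster, had 198 and 168 normalized counts in DMSO and 193 and 163 in AMF. Each group held a high replicate 1 and a low replicate 2, and the groups overlapped almost fully. The log2 change was -0.04 (95% interval -0.35 to 0.27, adjusted p = 0.861 by limma). MT1X had 68.0 and 51.3 in DMSO and 63.1 and 56.7 in AMF. The AMF values lay inside the DMSO range. The log2 change was 0.02 (95% interval -0.48 to 0.52, adjusted p = 0.971 by limma), and this interval is wide. MT1G had 288 and 207 in DMSO and 331 and 254 in AMF, with overlapping groups. Its log2 change of 0.25 (95% interval -0.09 to 0.59) did not pass (adjusted p = 0.265 by limma). Its size rests on single libraries: with limma the change of MT1G was 0.48 without DMSO replicate 1, 0.01 without DMSO replicate 2, 0.06 without AMF replicate 1 and 0.44 without AMF replicate 2, and none of these passed. With voom it was 0.49, 0.02, 0.06 and 0.44 in the same order, and the first of these passed (adjusted p = 0.0126). These intervals exclude the change seen for MT2A, and those of MT1F, MT1G and MT1X lie below the estimate for MT1E, although the difference between genes was not itself tested.

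**Figure D2:**
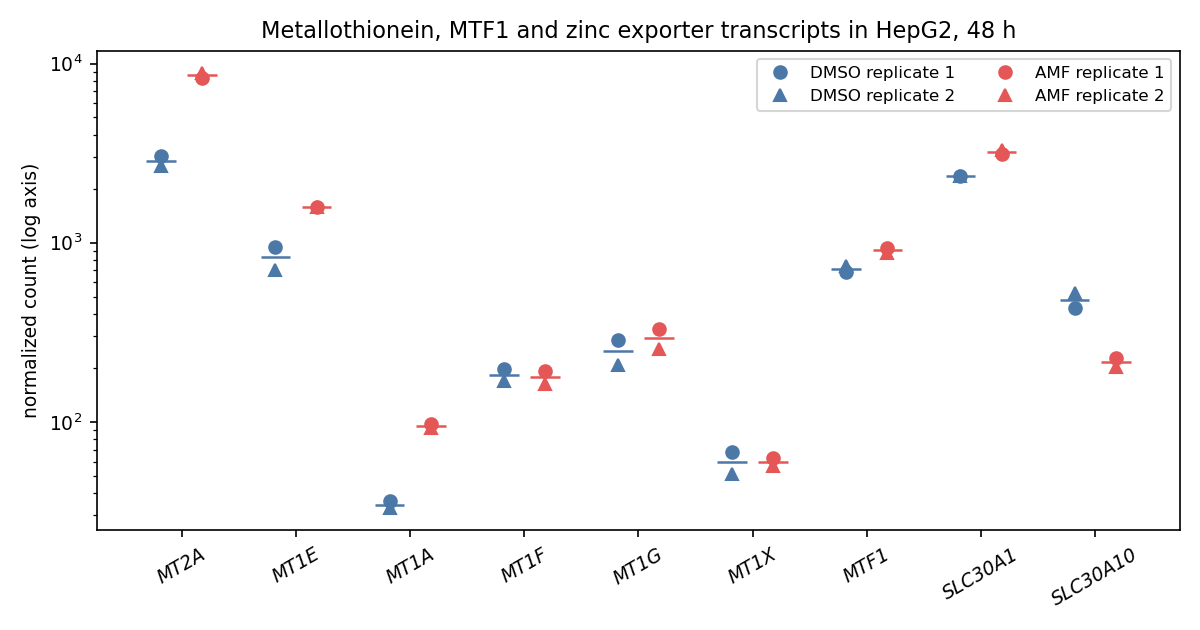
Normalized counts (log axis) of the 9 members tested in each library, with circles for replicate 1, triangles for replicate 2 and a line at the group mean. AMF lies above DMSO for MT2A, MT1E, MT1A, MTF1 and SLC30A1, below it for SLC30A10, and overlaps it for MT1F, MT1G and MT1X.

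Ratios of read counts taken inside a library do not depend on how libraries are scaled. The log2 ratio of MT2A to MT1F reads was 3.95 and 3.99 in DMSO and 5.43 and 5.77 in AMF, a difference of 1.63 between the group means. For MT2A to MT1X it was 5.49 and 5.71 in DMSO and 7.04 and 7.30 in AMF, a difference of 1.57. For MT2A to MT1E the ratio was 1.68 and 1.93 in DMSO and 2.40 and 2.49 in AMF, a smaller difference of 0.64. In all of these pairs both AMF libraries lay above both DMSO libraries. The pairs were formed after the values were seen and the ratios carry no test, and an exact permutation test of 2 libraries against 2 cannot go below p = 0.333 (two-sided).

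The members that rose and those that did not pass stand apart along the chromosome. RefSeq (GRCh38.p14) lists 16 metallothionein genes and pseudogenes on chromosome 16, of which 11 had a row. In that order MT2A comes first among the members, followed by MT1E, MT1M and MT1A, and then by MT1F, MT1G and MT1X. The 3 members that rose are thus the first 3 with enough reads, and the 3 that did not pass are the last 3. This order was noticed after the values were seen and was not tested.

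**Figure D3:**
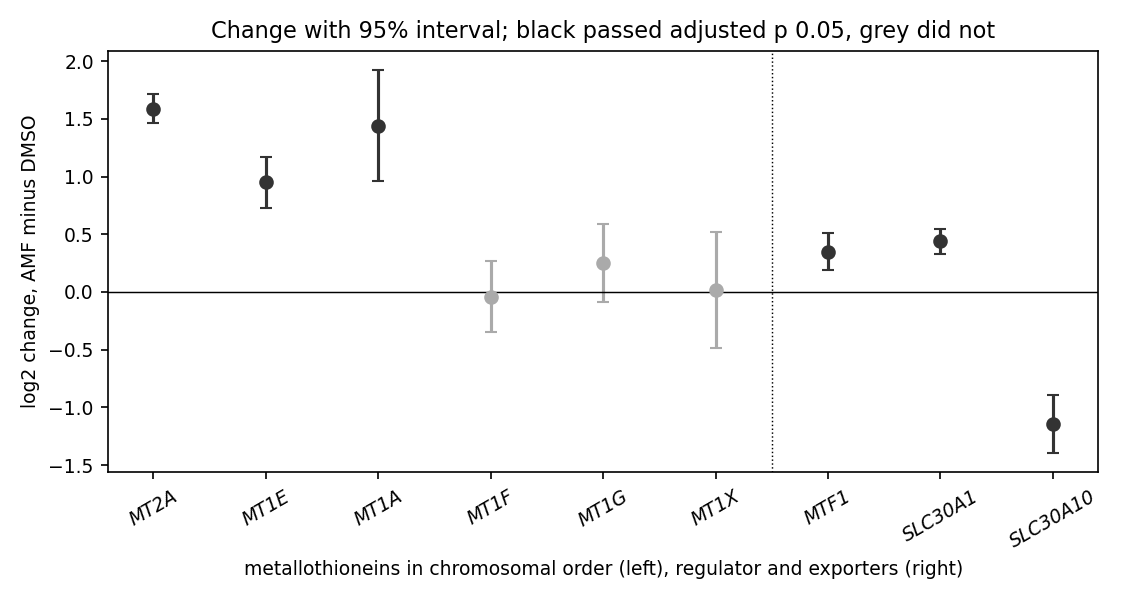
Log2 change of AMF minus DMSO with its 95% interval from limma for each member tested, the metallothioneins in their order along chromosome 16 and the regulator and exporters to the right of the dotted line. MT2A, MT1E and MT1A (1.59, 0.95 and 1.44) lie clear of 0, the intervals of MT1F, MT1G and MT1X include 0, and SLC30A10 lies at -1.15.

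The remaining metallothionein rows held few reads. MT1M, a member, had 1 read in DMSO replicate 2 and 0 in the other 3 libraries, so no change could be measured at this depth. MT1L, a transcribed pseudogene that lies between MT2A and MT1E, had 7 and 4 reads in DMSO and 19 and 11 in AMF, a ratio of 2.63 (95% exact interval 1.28 to 5.82, counting error only), and did not pass (adjusted p = 0.0957 by limma). MT1B had 0 reads in both DMSO libraries and 1 and 3 in AMF. MT2P1, a processed pseudogene, had 0 in both DMSO libraries and 3 and 2 in AMF. MT1DP had 0 and 1 read in DMSO and 3 in each AMF library, MT1P1 had 2 in each DMSO library and 5 and 1 in AMF, MT1H had 2 reads in DMSO replicate 1 alone, and MT1XP1 had 1 read in AMF replicate 1 alone. Of the 5 non-member rows that could be tested, 0 passed with limma's test, and of these only MT1L had an unadjusted p under 0.05 (0.0354).

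Added up, the 7 metallothionein members gave 4593 and 3847 normalized counts in DMSO and 10575 and 11060 in AMF, or 4220 ± 528 and 10818 ± 342 (SD, n = 2). The sum was 2.56-fold higher in AMF, and it does not depend on how the counted reads were split among the members. MT2A supplied most of it. Its share of the sum was 66.5% and 69.7% in DMSO and 78.6% and 80.6% in AMF. Without MT2A, the sum of the MT1 members was 1540.4 and 1164 in DMSO and 2264 and 2149 in AMF, a 1.63-fold difference that MT1E carries, since MT1F, MT1G and MT1X together gave 554 and 427 in DMSO and 588 and 474 in AMF. Per 1000000 reads counted in genes, the 7 members took 180.0 and 152 in DMSO and 422 and 443 in AMF.

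**Figure D4:**
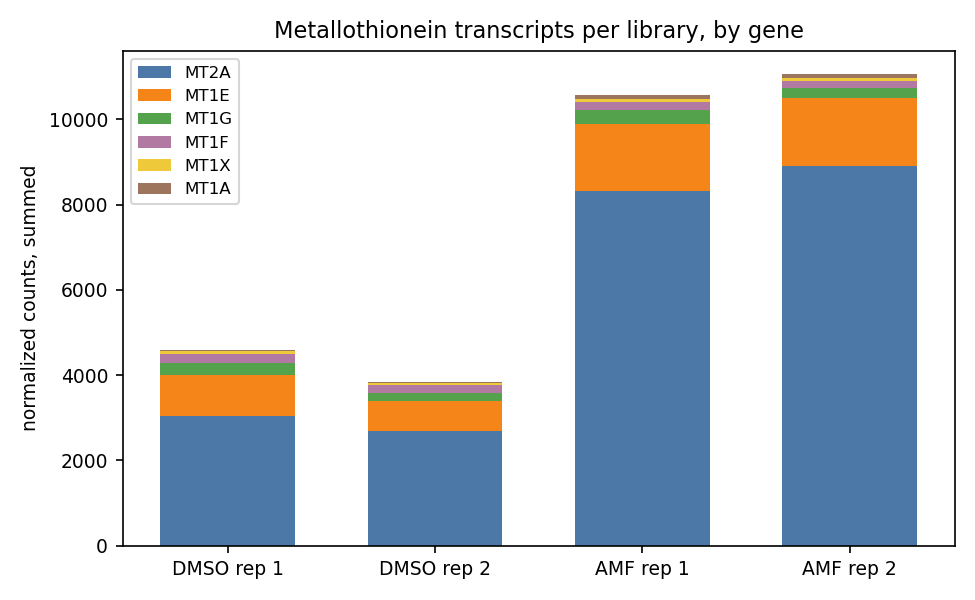
Summed normalized counts of the metallothionein members in each library, stacked by gene, on an axis from 0 (MT1M, with 1 read in all, is left out). The bars reach 4593 and 3847 in DMSO and 10575 and 11060 in AMF, and MT2A and MT1E account for nearly all of the difference.

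The members' transcripts are alike in sequence, which bears on how reads could be assigned. In the longest protein-coding transcript of GENCODE release 29, the share of 50-base windows found in no other gene was 95.1% for MT2A, 96.4% for MT1F, 94.2% for MT1A, 89.4% for MT1E and 85.7% for MT1G. At 100 bases it was 100% for each of these. For MT1X it was 44.2% at 50 bases and 49.2% at 100, and a gene named AC026461.1 overlaps its exons there on the same strand. AC026461.1 was the only other gene that shared 50-base windows with the MT1X transcript scored. MT1A, MT1F, MT1G, MT1M and MT2A shared such windows with other MT1X transcripts, which the MT1X share does not cover. No symbol AC026461.1 stands in the deposited table, whose annotation is not given in the sources used here. Read length and the handling of reads with several matches are also not given, so the split among the MT1 genes is uncertain.

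Per kilobase of the same transcripts, MT2A was highest in DMSO (3649 normalized counts per kilobase, group mean), followed by MT1E (1134), SLC30A1 (432), MT1G (394), MT1F (265), SLC30A10 (249.7), MT1X (111), MTF1 (89.4) and MT1A (86.9). In DMSO, the libraries of SLC30A1 and MT1G overlapped on this scale, as did those of MT1F and SLC30A10 and those of MTF1 and MT1A. In AMF, MT2A (10956) and MT1E (2168) were again highest, MT1A (240.2) lay just under MT1F (258), and SLC30A10 (112) was level with MTF1 (114.0) and MT1X (111). The lower places depend on the transcript chosen: per kilobase of all annotated exons, SLC30A10 had 82.9 and MT1X 33.6 in DMSO.

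Among 11136 other genes averaging 100 or more normalized counts, the 3 whose profile over the 4 libraries lay closest to MT2A were LAMC3, a laminin chain, ASB4, a substrate adaptor of ubiquitin ligases, and SOS1-IT1, an intronic transcript of SOS1. The Euclidean distances between centred log2 profiles were 0.0788, 0.0961 and 0.0980. LAMC3 had 164 and 152 normalized counts in DMSO and 448 and 471 in AMF. With 4 libraries in 2 groups, any gene with a rise of like size lies close to MT2A.

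MTF1, the zinc sensor that binds MREs, rose modestly. It had 685 and 741 normalized counts in DMSO and 939 and 879 in AMF, with no overlap between the groups. The log2 change was 0.35 (SE 0.0751, 95% interval 0.19 to 0.51, adjusted p = 0.00218 by limma), and it did not pass without DMSO replicate 1 (adjusted p = 0.0905) or DMSO replicate 2 (0.0531). Among 19 genes listed as regulators of metallothionein transcription, MTF1 included, 2 rose, 11 fell and 6 did not pass, with a median log2 change of -0.20. The list includes a coactivator and partners and competitors of NRF2. It was chosen with earlier results known and was not tested as a set. Over all genes tested, 15.6% were called higher and 16.2% lower. The other rise was that of MAFF, a small MAF partner of NRF2 (0.67, adjusted p = 1.21e-04 by limma). The largest falls were those of CEBPB, a C/EBP transcription factor of liver (-0.79, adjusted p = 3.73e-08), BACH1, a repressor that competes with NRF2 (-0.57, adjusted p = 1.06e-05), and the coactivator EP300 (-0.54, adjusted p = 1.49e-06), all by limma.

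The exporters SLC30A1 and SLC30A10 moved in opposite directions. SLC30A1 had 2364 and 2370 normalized counts in DMSO and 3126 and 3286 in AMF. The DMSO libraries were nearly equal and both AMF libraries lay above them. The log2 change was 0.44 (SE 0.0508, 95% interval 0.33 to 0.55, adjusted p = 1.05e-05 by limma). SLC30A10 had 432 and 525 in DMSO and 227 and 203 in AMF. Both AMF libraries lay below both DMSO libraries. The log2 change was -1.15 (SE 0.117, 95% interval -1.40 to -0.90, adjusted p = 2.95e-06 by limma). The log2 ratio of SLC30A1 to SLC30A10 reads inside each library was 2.45 and 2.18 in DMSO and 3.79 and 4.02 in AMF. On the scale of the deposited values the change of SLC30A10 was -0.85.

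Among the ZnT transporters, most of which move zinc out of the cytosol, 8 of the 11 listed could be tested. Of these 3 rose, 2 fell and 3 did not pass, beside 15.6% higher and 16.2% lower among all genes tested. Besides SLC30A1, the rises were those of SLC30A6 (0.27, adjusted p = 0.00725 by limma) and SLC30A9 (0.19, adjusted p = 0.0212 by limma). SLC30A3, known for loading zinc into vesicles, fell (-0.39, adjusted p = 0.00362 by limma). None of these reached the size of the SLC30A10 change. Of 12 tested ZIP transporters, which move zinc into the cytosol, 4 rose, 1 fell and 7 did not pass. SLC39A4, the importer mutated in acrodermatitis enteropathica, had 2603 and 2534 normalized counts in DMSO and 4319 and 4003 in AMF. It rose by 0.69 (SE 0.0520, adjusted p = 1.31e-07 by limma). SLC39A11 (0.41), SLC39A6 (0.30) and SLC39A9 (0.23, named since it completes the count) also rose. SLC39A14, an importer of manganese, zinc and iron that is abundant in liver, had 22250 and 22177 in DMSO and 16772 and 16193 in AMF, and fell (-0.43, SE 0.0365, adjusted p = 4.80e-07 by limma).

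Genes of manganese handling, to which SLC30A10 and SLC39A14 belong, showed falls and no rise. Of 9 tested, 0 rose, 6 fell and 3 did not pass, with a median log2 change of -0.43. Over all genes tested, 15.6% were called higher and 16.2% lower. The list was chosen with earlier results known and was not tested as a set. After SLC30A10, the largest falls were those of SOD2, the manganese superoxide dismutase of mitochondria (-0.82, adjusted p = 1.14e-07 by limma), and SLC11A2, the divalent metal importer DMT1 (-0.73, adjusted p = 3.66e-07 by limma). Beyond the naming rule, the other falls were SLC39A14, the Golgi transporter TMEM165 (-0.27) and the iron exporter ferroportin, SLC40A1 (-0.25). Several of these genes also serve iron. Copper handling was mixed, with 4 of 12 tested rising, 3 falling and 5 not passing. CP, the copper-carrying plasma protein ceruloplasmin, fell from 1476 and 1170.4 normalized counts in DMSO to 491 and 499.6 in AMF (-1.41, SE 0.0942, adjusted p = 4.34e-08 by limma). The copper chaperone ATOX1 (0.43), the mitochondrial assembly factors COX17 (0.36) and SCO1 (0.34), and SOD1 (0.27) rose, and the chaperone CCS (-0.29) and the copper pump ATP7B (-0.22) fell. Metallothioneins bind copper as well as zinc.

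**Figure D5:**
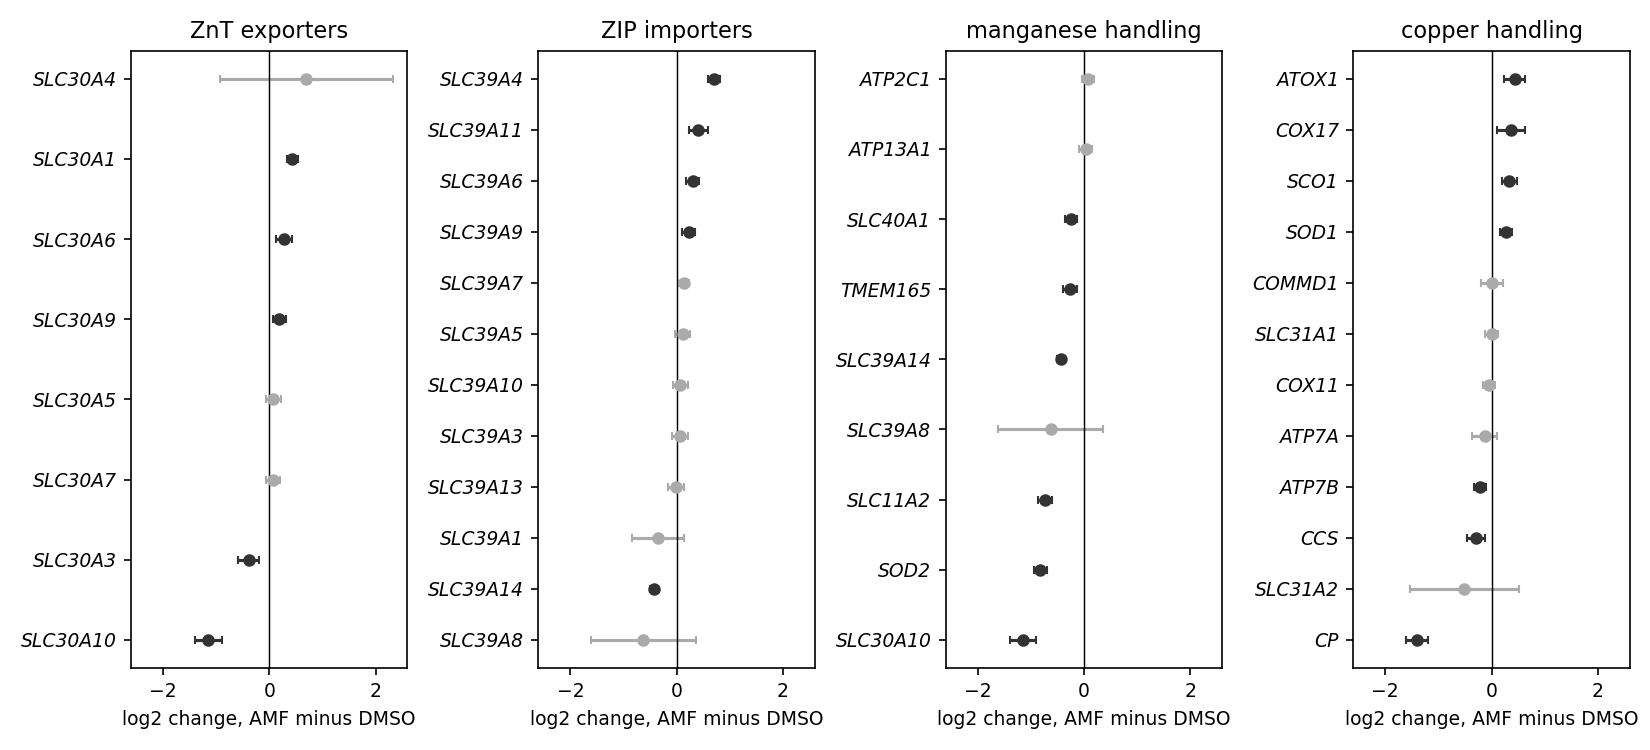
Log2 change of AMF minus DMSO with 95% intervals from limma for the tested genes of 4 lists, black where the adjusted p passed 0.05 and grey where it did not. SLC30A10 and CP have the largest falls of their lists, SLC39A4 the largest rise of the ZIP importers, and no gene of manganese handling rose.

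Other genes known to respond to cadmium, zinc or thiol stress were mostly higher. Of 20 tested, 15 rose, 0 fell and 5 did not pass, with a median log2 change of 0.91. Over all genes tested, 15.6% were called higher and 16.2% lower. The list holds heat shock and NRF2 target genes as well as direct metal targets, and was chosen with earlier results known. HSPA6, an inducible HSP70 gene, had 0 reads in both DMSO libraries and 146 and 176 normalized counts in AMF. HSPA1A rose by 1.66 and HSPA1B by 1.60 (adjusted p = 5.80e-09 and 2.27e-08 by limma), and reads of these near-identical copies may be shared. HMOX1, heme oxygenase, a gene strongly induced by cadmium, had 1284 and 1202 in DMSO and 2956 and 3195 in AMF (1.31, adjusted p = 1.00e-09 by limma), and is named here after its values were seen. PGF, a target of MTF1 that is also named outside the naming rule, was one of the 5 that did not pass (-0.13, adjusted p = 0.284 by limma).

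Glucocorticoids induce MT2A, and genes that respond to them moved both ways. Of 10 tested, 3 rose, 3 fell and 4 did not pass, with a median log2 change of -0.19. Over all genes tested, 15.6% were called higher and 16.2% lower. The kinase SGK1 fell from 704 and 691 normalized counts in DMSO to 175 and 183 in AMF (-1.95, adjusted p = 1.88e-09 by limma), TSC22D3, which encodes GILZ, fell by 1.02 and ERRFI1 by 0.43. TAT, a tyrosine aminotransferase (0.98), KLF9 (0.82) and FKBP5 (0.21) rose.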

How the data were processed

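Poly(A) RNA of HepG2 cells was made into non-directional libraries, per the labels' protocols. The submitters' processing notes list STAR 2.7.0, featureCounts and hg19. The sources used here give neither the annotation nor the normalization. The authors deposited log2-scale values for 30863 genes in 4 libraries, with a common floor of 6.01. Judged by the values, they follow a variance-stabilizing transformation, which was inverted to normalized counts and then to whole reads (100% of values whole within 0.01 reads). Columns of other samples numbered 0.

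The members and lists were chosen with earlier results of these data known. All 10 members, all metallothionein rows, up to 6 genes per list (of the genes called and averaging 10 or more, the 3 that rose most and the 3 that fell most) and the 3 genes closest to MT2A are named. ALB, COL1A2, DCN, THY1, CDH5, CD3E, SOD1, SLC39A9, TMEM165, SLC40A1, HMOX1 and PGF are named outside this rule. limma 3.58.1 in R 4.3.3 (limma-trend, log2(normalized count + 1), mean of at least 1, group as the sole term, Benjamini-Hochberg over 23828 genes) gave changes, 95% intervals and p-values, and was tested on simulated data. Count models were not run on these log2 values. Read-ratio intervals are exact binomial. Motifs and sequence windows (50, 75 and 100 bases) came from RefSeq promoters (GRCh38.p14) and GENCODE release 29. Alternatives were other pseudocounts, filters, scalings and thresholds, the deposited values, voom, each library left out, and a replicate block. Figures used matplotlib 3.10.9.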

Additional observations from a re-analysis of the deposited data

How the results depend on the processing

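The counts of members called (6, with 5 higher and 1 lower) were the same with a pseudocount of 0.1, no filter, a mean of at least 10, library totals, the deposited log2 values, voom with all libraries and an adjusted p of 0.01. On the deposited values the change of MT1A was 0.63 against 1.44. With 1 library left out, limma-trend called 0 to 5 members (0 to 4 higher and 0 to 1 lower) and voom 2 to 7 (2 to 6 higher and 0 to 1 lower). Over all genes, the 7578 calls became 0 to 3531 with limma-trend (0 to 1753 higher and 0 to 1780 lower) and 1315 to 6776 with voom (636 to 3043 higher and 679 to 3733 lower). The lowest values came from leaving out AMF replicate 1 (voom: 1379, 667 higher and 712 lower) or AMF replicate 2. The library left alone is then assumed to vary like the other group. With voom and either AMF library left out, only MT2A (adjusted p = 0.0417 and 0.0420) and SLC30A1 (0.0437 and 0.0453) passed, and MT1A, MT1E, MTF1 and SLC30A10 did not (0.0519 to 0.127). MTF1 was the called member that did not pass when a DMSO library was left out of limma-trend. The log2 ratio of the summed metallothioneins, 1.36, was 1.24 to 1.49 with 1 library left out.

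The sign of MT1F and MT1X, neither of which passed, was not stable. The change of MT1F ran from -0.16 to 0.08 with 1 library left out of limma-trend and from -0.17 to 0.08 with voom. It was positive without DMSO replicate 1 (0.0742, or 0.0801 with voom) and without AMF replicate 2 (0.0809, or 0.0793 with voom). That of MT1X ran from -0.18 to 0.22 with both tools, and was negative without DMSO replicate 2 (-0.182, or -0.18 with voom) and without AMF replicate 1 (-0.0594, or -0.0621 with voom). The cause was not tested. With the replicate number as a block, 6 members passed, 5 higher and 1 lower, and 8157 genes were called. Across genes averaging 100 or more normalized counts, the deviations of same-numbered libraries were nearly uncorrelated (r = 0.02 over 11137 genes). No shared replicate effect was seen over these genes as a whole, which leave out MT1A and MT1X. MT1A, MT1F, MT1G and MT1X nevertheless had the higher value in replicate 1 of both groups. With the block, MT1G did not pass (adjusted p = 0.109 by limma). The correlation cannot show whether same-numbered libraries were handled together, which is not stated. Depth limits MT1M, MT1B, MT1H and the pseudogenes, where 3 reads are 2.79 to 3.09 normalized counts.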

Other observations

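Within DMSO, replicate 1 had the higher value for all 6 metallothioneins tested. Within AMF, replicate 1 had the higher value for 4 of the 6, and replicate 2 for MT2A and MT1E.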
